A study of Saccharomyces cerevisiae with 6 samples.

Results

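RIM15 and 7 genes that act around it, IGO1, IGO2, GIS1, MSN2, MSN4, XBP1 and SCH9, were followed in wine strains of Saccharomyces cerevisiae, the yeast that ferments grape must. They were taken by their standard names, as 8 genes of the 6611 records in the deposited expression table. RIM15 was chosen by its measured RPKM, which earlier results of these data showed to be low in strain AWRI796, and the other 7 were chosen as genes of the same pathway with those results known. The difference of RIM15 between AWRI796 and VL3 is therefore given as a description with no test. Of the 8 genes, 7 had a mean of at least 5 RPKM (reads scaled to the length of the gene and to the mapped reads of the library) over the 6 libraries and passed the filter on low values. XBP1 did not.

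All 6 cultures grew at 25°C in MS300, a synthetic white wine must, and were sampled once 6 g/l of CO2 had been released, in the exponential phase of growth. R008 is a vineyard strain, and AWRI796, VL3 and EC1118 are enological strains, that is, strains used for winemaking. R008 with SO2 at 25 mg/l, AWRI796 with SO2, AWRI796 without SO2, VL3 with SO2, VL3 without SO2 and EC1118 with SO2 make up the 6 libraries, with no replicate in any group. No library of R008 or EC1118 without SO2 is among the 6. Levels are RPKM divided by 1 scaling factor per library, called scaled RPKM. Changes are differences of log2(scaled RPKM + 1), a scale on which low genes look less different than they are. Every fold is read on this scale, as a ratio of scaled RPKM + 1. It is therefore smaller than the ratio of the levels, most of all in low genes.

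Rim15 is a protein kinase that helps yeast enter the resting state when nutrients run out. While nutrients are plentiful, it is held back by the TORC1 complex and its effector kinase Sch9, by protein kinase A and by the cyclin and kinase pair Pho80 and Pho85. Active Rim15 phosphorylates the small endosulfines Igo1 and Igo2, which then inhibit the phosphatase PP2A with its Cdc55 subunit. The stress activators Msn2 and Msn4, which bind the stress response element (STRE, AGGGG), and Gis1, which acts at post-diauxic shift elements, switch on stress and resting-state genes. Xbp1 is a stress-induced repressor of cyclin and other growth genes.

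The depth of the libraries is unknown, because RPKM hold no counts. Multiplied by the gene length in the table, the RPKM of RIM15 came to 17.6 and 25 RPM (reads scaled to the mapped reads of the library alone) in AWRI796 with and without SO2. In VL3 with and without SO2 they came to 156 and 168 RPM. The table gives RIM15 a length of 5313 bp. Whether that gene model holds for AWRI796, and how its reads mapped there, was not tested. For XBP1 the same quantity lay between 1.38 and 2.53 RPM over the 6 libraries. The sums of RPKM per library lay between 778099 and 1070970.

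Reads shared with related genes were looked for in the R64 reference genome, since they could blur values of the paralogs. None of the 8 genes had a near-identical copy, and none overlapped another reading frame of the table. The longest stretch that a member shared exactly with another place in the genome was 29 bases, in RIM15, and in the other members it was between 17 and 21 bases. Between related genes the longest identical run is printed here to show how short it is, counting from the first base of each start codon.
MSN2 and MSN4, 12 bases from base 526 of MSN2 and base 986 of MSN4: caaacttcaaat
GIS1 and its paralog RPH1, 14 bases from base 2515 of GIS1 and base 2158 of RPH1: tctggtcaccatct
IGO1 and IGO2 shared no exact run longer than 8 bases. The sources used here do not give the read length or how reads with several matches were treated.

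RIM15 (YFL033C, chromosome 6, 69115 to 74427, minus strand, coordinates of the table and equal to R64) was the gene of the set that differed most between strains. It stood at 3.01 scaled RPKM in AWRI796 with SO2 and 4.08 in AWRI796 without SO2, against 29.3 in VL3 with SO2 and 35.6 in VL3 without SO2. R008 with SO2 had 20.6 and EC1118 with SO2 had 15.2. Both AWRI796 libraries thus lay below the other 4, both VL3 libraries lay above the other 4, and R008 and EC1118 stood in between. With 1 library each, the order of R008 and EC1118 cannot be set against any spread. In such bulk cultures, fewer cells expressing a gene and less RNA per cell cannot be told apart.

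The difference of RIM15 between AWRI796 and VL3 was -2.92 on the log2 scale with SO2 and -2.85 without SO2. As ratios of scaled RPKM + 1 these are 7.54-fold and 7.21-fold lower in AWRI796, less than the levels themselves differ. These values chose the gene, and they are given without a test. At least 1.5-fold lower in AWRI796 than in VL3 were 12.3% of 5092 genes with SO2 and 19.2% without SO2. Of those genes, 9 lay further below than RIM15 with SO2 and 25 without. Over all 6 libraries RIM15 had a range of 3.19 log2 units, and 80 of 5009 genes (1.6%) had a wider one. The median gene had a range of 0.93 log2 units. Both AWRI796 libraries lay below all others in 8.42% of the 5009 genes.

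The other members differed less between these strains. Without SO2, IGO1 was 1.82-fold and MSN2 1.52-fold higher in AWRI796 than in VL3, 2 of the 7 genes that passed the filter, where 19.6% of all genes exceeded 1.5-fold upward. With SO2, MSN4 was 1.52-fold higher in AWRI796, 1 of the 7, where 15.9% were. RIM15 was the lone member at least 1.5-fold lower in AWRI796 at either SO2 level. These comparisons use the same 4 libraries as the SO2 comparisons within the strains.

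**Figure D1:**
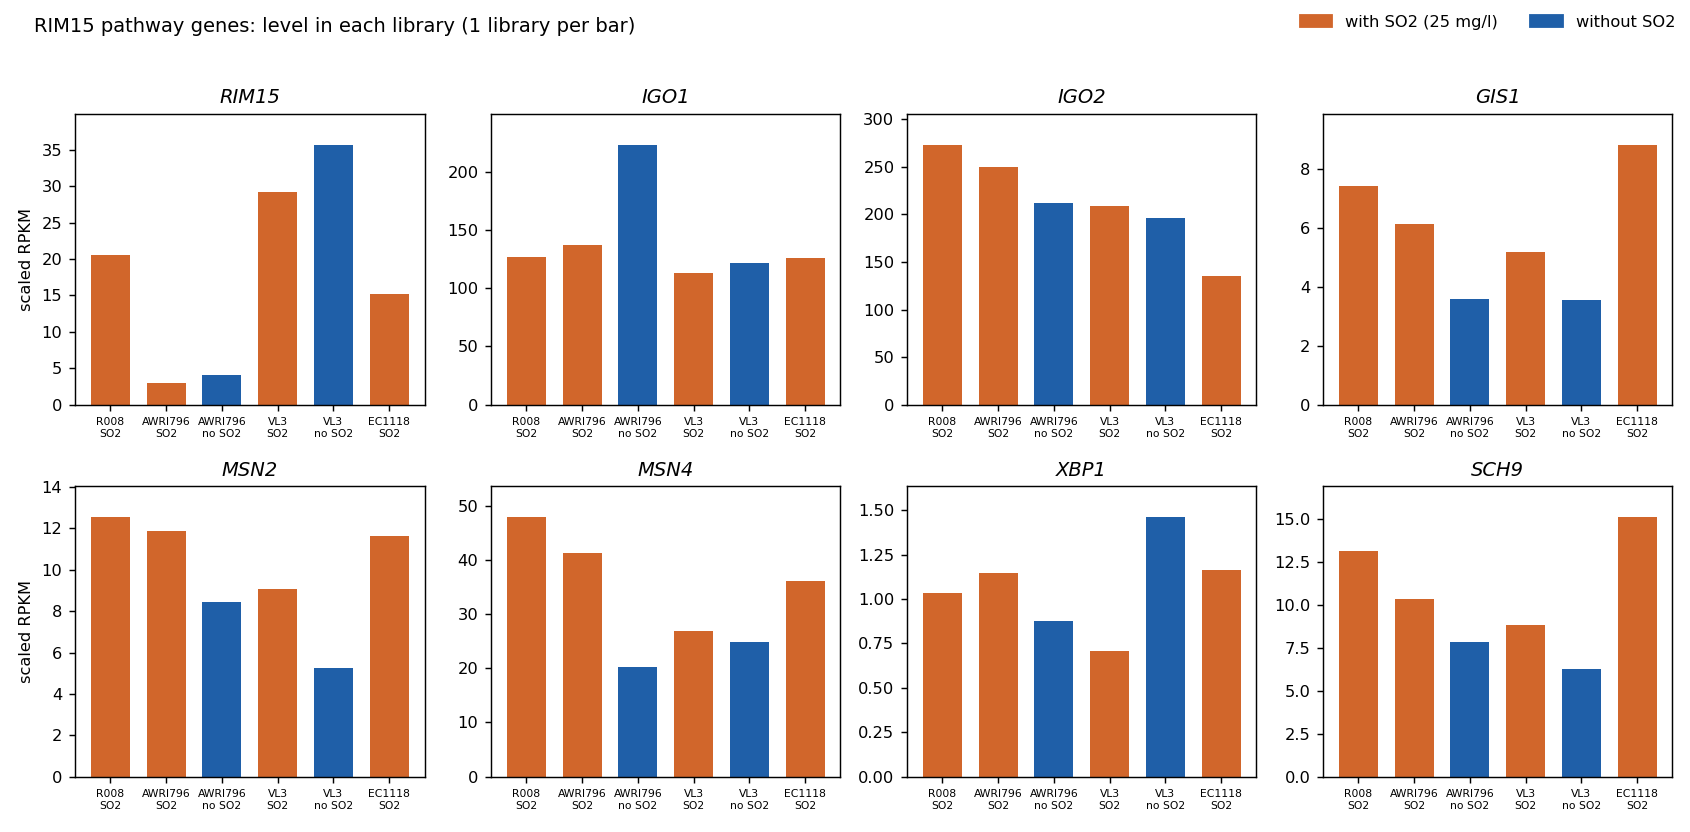
Scaled RPKM of each of the 8 genes in each of the 6 libraries, with 1 bar per library, orange with SO2 and blue without, and an axis of its own for each gene. RIM15 is at 3.01 and 4.08 in AWRI796 and between 15.2 and 35.6 elsewhere, IGO1 stands out in AWRI796 without SO2 at 222, and XBP1 stays between 0.707 and 1.46.

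With SO2, RIM15 was lower than without it in both strains, by less than 1.5-fold. In AWRI796 the log2 change was -0.34, and in VL3 it was -0.27. Over both strains the mean log2 change was -0.31 ± 0.34 (SE, limma adjusted p = 0.886, Benjamini-Hochberg over 5092 genes), so RIM15 did not pass the test.

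The genes beside RIM15 on chromosome 6 were read in the same way, from the nearest 3 named or unnamed reading frames on each side that the table does not call dubious. Its immediate neighbour YFL034W (65477 to 68698) differed between AWRI796 and VL3 by -0.48 log2 units with SO2 and -0.41 without SO2. On the other side HAC1, the transcription factor of the unfolded protein response, differed by 0.07 with SO2. Without SO2 it stood at 1113 scaled RPKM in AWRI796 and 4465 in VL3. RPL22B, a ribosomal protein gene, differed by 0.89 with SO2 and -0.37 without SO2. AGX1 differed by -0.55 and -0.79, and CAK1, a kinase that activates cyclin-dependent kinases, by -0.21 and -1.03, each with and without SO2. MOB2 had no value in VL3. RIM15 was chosen for its low values in AWRI796 and its neighbours were not, so nothing is read from the comparison between them.

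**Figure D2:**
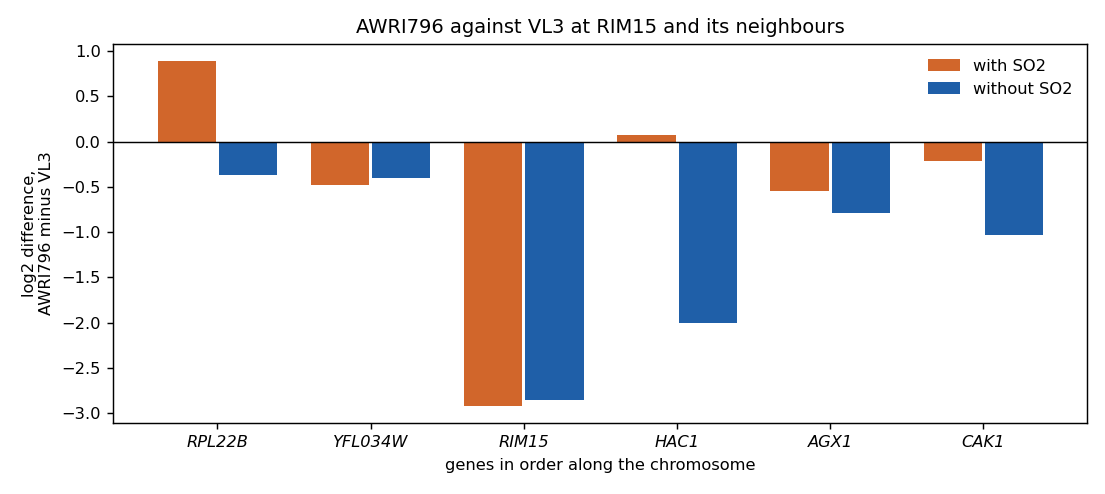
Log2 difference AWRI796 minus VL3 for RIM15 and the 5 neighbouring genes with a value in both strains, in their order along the chromosome, orange with SO2 and blue without. RIM15 is at -2.92 and -2.85, and the next lowest value is that of HAC1 without SO2.

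The genes whose levels ran most like those of RIM15 over the 6 libraries were sought among 1795 named genes with a range of at least 1 log2 unit, by Pearson's r on the log2 scale. The highest r values were 0.995 for SCO2, which serves copper delivery to cytochrome c oxidase, 0.985 for the multidrug transporter gene QDR1 and 0.98 for FAB1, a phosphatidylinositol 3-phosphate 5-kinase. PNP1, a purine nucleoside phosphorylase gene, followed at 0.974 and TUS1, the exchange factor for Rho1, at 0.971. TUS1 stood at 3.25 and 2.94 scaled RPKM in AWRI796 with and without SO2, against 27.9 and 28.4 in VL3 with and without SO2. The lowest r values belonged to KAR9 at -0.988, POL1 at -0.976, VMA21 at -0.969, SDC1 at -0.967 and CGI121 at -0.96. With 6 libraries from 4 strains, 2 strains of which supply 2 libraries each, these r values are a description of levels over the same few strains.

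IGO1 and IGO2 encode the endosulfines through which Rim15 acts, and both were well above RIM15 in level per length. IGO1 (YNL157W, chromosome 14, 340352 to 340858) stood at 137 scaled RPKM in AWRI796 with SO2 and 222 in AWRI796 without SO2. It had 113 in VL3 with SO2, 122 in VL3 without SO2, 127 in R008 and 126 in EC1118. The library of AWRI796 without SO2 was thus apart from 5 libraries that lay between 113 and 137. IGO1 was 1.62-fold lower with SO2 in AWRI796 (log2 change -0.69) and 1.08-fold lower in VL3 (log2 change -0.11). The VL3 value turned to 0.06 without the scaling factors.

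IGO2 (YHR132W-A, chromosome 8, 370054 to 370449) stood at 249.8 scaled RPKM in AWRI796 with SO2 and 212 in AWRI796 without SO2. In VL3 it had 209 with SO2 and 197 without SO2, in R008 273 and in EC1118 135. Its changes with SO2 were 0.23 in AWRI796 and 0.08 in VL3 on the log2 scale. R008 had the highest level of IGO2 and EC1118 the lowest, whereas these strains had nearly the same level of IGO1. Over both strains the mean change with SO2 was -0.40 ± 0.32 for IGO1 (SE, limma adjusted p = 0.84) and 0.16 ± 0.32 for IGO2 (adjusted p = 0.94), and neither passed.

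GIS1, the activator at post-diauxic shift elements and a JmjC-domain histone demethylase, was among the lower members in every library. GIS1 (YDR096W, chromosome 4, 637139 to 639823) stood at 6.14 scaled RPKM in AWRI796 with SO2 and 3.59 in AWRI796 without SO2. In VL3 it had 5.17 with SO2 and 3.57 without SO2, in R008 7.41 and in EC1118 8.81. The cultures without SO2 had nearly the same level in both strains, and all 4 libraries with SO2 lay above them. GIS1 passed the filter on low values only through the libraries with SO2. They had 5.19 to 8.84 deposited RPKM, against 3.18 in VL3 and 4.14 in AWRI796 without SO2. With SO2, GIS1 as scaled RPKM + 1 was 1.55-fold higher in AWRI796 (log2 change 0.64) and 1.35-fold higher in VL3 (log2 change 0.43).

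MSN2 (YMR037C, chromosome 13, 344403 to 346517, minus strand) encodes the more constantly expressed of both STRE activators. It stood at 11.9 scaled RPKM in AWRI796 with SO2 and 8.46 in AWRI796 without SO2, and at 9.08 in VL3 with SO2 and 5.24 in VL3 without SO2. R008 had 12.5 and EC1118 had 11.6. Both libraries without SO2 were thus below all 4 with SO2, which did not hold without the scaling factors (9.75 deposited RPKM in AWRI796 without SO2, above 9.11 in VL3 with SO2). With SO2, MSN2 as scaled RPKM + 1 was 1.36-fold higher in AWRI796 (log2 change 0.44) and 1.61-fold higher in VL3 (log2 change 0.69).

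MSN4 (YKL062W, chromosome 11, 323228 to 325120) encodes the partner of Msn2. It stood at 41.3 scaled RPKM in AWRI796 with SO2 and 20.2 in AWRI796 without SO2. As scaled RPKM + 1 it was 1.99-fold higher with SO2, the largest change of the 7 genes that passed the filter. In VL3 it had 26.9 with SO2 and 24.9 without SO2, 1.08-fold higher. R008 had 47.9, the highest of the 6 libraries, and EC1118 had 36.1. The MSN4 change was 0.89 log2 units larger in AWRI796 than in VL3, a difference that was not tested because each change comes from 1 pair of libraries. In every library the level of MSN4 per length was above that of MSN2.

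SCH9 (YHR205W, chromosome 8, 509363 to 511837) encodes the TORC1-dependent kinase that keeps Rim15 in the cytoplasm and promotes growth. It stood at 10.3 scaled RPKM in AWRI796 with SO2 and 7.85 in AWRI796 without SO2. In VL3 it had 8.8 with SO2 and 6.24 without SO2, in R008 13.1 and in EC1118 15.1. The 4 libraries with SO2 lay above both without it, which did not hold without the scaling factors (8.83 deposited RPKM in VL3 with SO2, below 9.05 in AWRI796 without SO2). With SO2, SCH9 as scaled RPKM + 1 was 1.28-fold higher in AWRI796 (log2 change 0.36) and 1.35-fold higher in VL3 (log2 change 0.44).

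**Figure D3:**
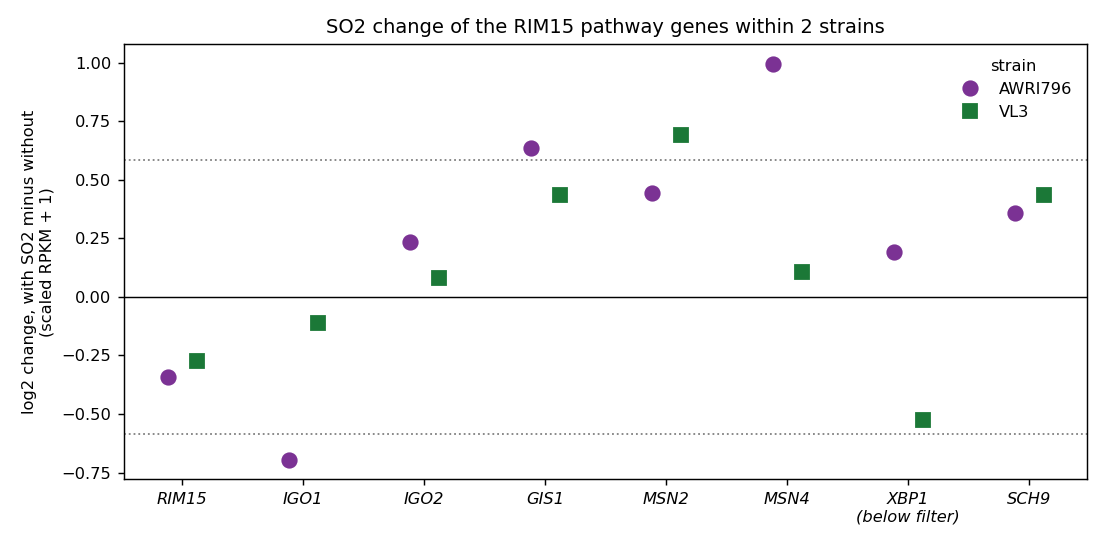
Log2 change with SO2 minus without SO2 of each gene in AWRI796 (circles) and VL3 (squares), with dotted lines at 1.5-fold. GIS1, MSN2, MSN4, SCH9 and IGO2 lie above 0 in both strains, RIM15 and IGO1 below 0 in both (IGO1 in VL3 at 0.06 without the scaling factors), and MSN4 reaches 1.00 in AWRI796 against 0.10 in VL3.

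Taken by size, GIS1 and MSN4, 2 of the 7 genes that passed the filter, exceeded 1.5-fold upward with SO2 in AWRI796, where 17.6% of 5158 genes did, and IGO1 was at least 1.5-fold lower, where 15.4% were. In VL3, 1 of the 7 (MSN2) was at least 1.5-fold higher, where 10.7% of 5150 genes were, and 0 were at least 1.5-fold lower, where 9.86% were. These counts are small and none has a replicate check. The upward count in AWRI796 and the count by direction below include GIS1, which passed the filter only through libraries with SO2. The median change of the 7 genes was 0.36 log2 units in AWRI796 and 0.10 in VL3, against -0.003 and -0.01 over all genes in AWRI796 and VL3. By direction alone, 5 of the 7 were higher with SO2 in both strains, where 26.5% of 5092 genes were, and RIM15 and IGO1 were lower in both, where 27.4% were, although IGO1 was at 0.06 in VL3 without the scaling factors.

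GIS1, MSN2, MSN4 and SCH9, 4 of the 7, had all libraries with SO2 above both libraries without SO2, which 9.16% of 5009 genes had, and 0 of the 7 had them all below, which 10.3% had. Without the scaling factors this held for 2 of them, GIS1 and MSN4. Because GIS1 passed the filter only through its libraries with SO2, the filter favoured its place in this count. R008 and EC1118 enter it only with SO2, so for these strains the SO2 level and the strain cannot be told apart. In limma with strain as a block, the mean change over AWRI796 and VL3 was 0.55 ± 0.33 for MSN4 (SE, adjusted p = 0.793), 0.57 ± 0.37 for MSN2 (adjusted p = 0.797), 0.53 ± 0.46 for GIS1 (adjusted p = 0.852) and 0.40 ± 0.37 for SCH9 (adjusted p = 0.863). None passed, and limma called 0% of the 5092 genes higher and 0% lower, while 375 of them had an unadjusted p under 0.05. With 1 residual degree of freedom the SE draws mostly on the spread of other genes. The p-values rest on how far the SO2 changes of AWRI796 and VL3 differ, not on replicate cultures.

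XBP1 (YIL101C, chromosome 9, 175307 to 177250, minus strand), the stress-induced repressor, was the lowest member in all 6 libraries. It stood at 1.15 scaled RPKM in AWRI796 with SO2 and 0.876 in AWRI796 without SO2, at 0.707 in VL3 with SO2 and 1.46 in VL3 without SO2, at 1.03 in R008 and at 1.17 in EC1118. Libraries with and without SO2 overlapped. At so low a level no direction is drawn from these values.

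The 500 bases before each start codon were searched in R64 for the STRE, as AGGGG or CCCCT, which covers both strands. XBP1 had 4 of them, and 0.449% of 6019 windows of that length had at least 4. GIS1, IGO1 and SCH9 had 1 each, and RIM15, IGO2, MSN2 and MSN4 had 0 in this window. At least 1 was found in 34% of all windows. The core AGGGAT of the post-diauxic shift element, on either strand, was in 0 of the 8 windows and in 15.4% of all, and the Xbp1 site CTCGAG in 0 of the 8 and in 8.17% of all. The windows of IGO1 and IGO2 reach into neighbouring genes that lie 143 and 259 bases away.
The stretch before XBP1 is shown because the gene with the most such elements had the lowest level, and that before GIS1 for comparison with a gene that was higher with SO2 in both strains. Both are reference sequence of R64, on the strand of the gene, with STRE letters in capitals.
XBP1, chr9:177555-177733, minus strand: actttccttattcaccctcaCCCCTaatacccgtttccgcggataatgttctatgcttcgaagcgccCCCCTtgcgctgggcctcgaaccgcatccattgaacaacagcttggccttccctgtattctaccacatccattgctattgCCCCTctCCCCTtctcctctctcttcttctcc
GIS1, chr4:636793-636837, plus strand: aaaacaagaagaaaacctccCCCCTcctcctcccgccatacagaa
The elements of XBP1 begin 463, 416, 336 and 329 bases before the start codon, and that of GIS1 begins 326 bases before it. A match in letters is a description of the reference strain and not a bound site.

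R008 was set against the 3 enological strains with SO2, the level at which all 4 strains were measured. For RIM15 this contrast holds the AWRI796 library whose low value chose the gene, so its difference of 0.78 log2 units is a description with no test, and without AWRI796 it was -0.04. Without VL3 it was 1.42. MSN4 was 0.47 ± 0.36 higher and IGO2 0.51 ± 0.43 higher (SE, limma adjusted p = 0.9997 for both, over 5009 genes). The differences of the other 4 genes lay between 0.03 for IGO1 and 0.22 for SCH9, and those of IGO1, GIS1 and MSN2 turned to -0.21, -0.05 and -0.02 without the scaling factors. None of these 6 passed. limma called 0.0399% of the genes higher in R008 and 0.14% lower, and 158 genes had an unadjusted p under 0.05.

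Upstream of Rim15, the lists for TORC1, protein kinase A, Ras and cAMP signalling, and PHO80, PHO85 and 14-3-3 genes had medians below 0 in AWRI796. In VL3 their medians were above 0. These lists hold inhibitors of the kinases as well as the kinases. SCH9, which encodes an inhibitory kinase outside these lists, had a log2 change of 0.36 in AWRI796 and 0.44 in VL3. None of the genes in these or the following lists passed limma over both strains, so all values are sizes within 1 pair of libraries per strain. The counts at 1.5-fold in these lists stand against the shares over all genes given above, 17.6% higher and 15.4% lower in AWRI796 and 10.7% higher and 9.86% lower in VL3. Of 5 TORC1 subunit genes, 2 were at least 1.5-fold lower in AWRI796, where 15.4% of all genes were, and the median log2 change was -0.54. With a minimum mean of 20 RPKM the count became 0 and the median -0.17. In VL3, 1 was at least 1.5-fold higher and the median was 0.18. TCO89, a subunit of TORC1, was 1.6-fold lower in AWRI796 and 1.16-fold higher in VL3. TOR1, which encodes a TORC1 kinase, was 1.45-fold lower in AWRI796, with a log2 change of 0.16 in VL3. The log2 change of LST8, a further subunit, was 0.19 in AWRI796 and -0.21 in VL3. KOG1, another TORC1 subunit, stood at 5.98 and 6.5 scaled RPKM in AWRI796 with and without SO2, against 14.1 and 12.3 in VL3 with and without SO2.

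Protein kinase A was similar by its medians. Of its 4 subunit genes, 2 were at least 1.5-fold lower in AWRI796, where 15.4% of all genes were, with a median log2 change of -0.47, and 0 differed by 1.5-fold in VL3, with a median of 0.13. The catalytic subunit gene TPK2 was 1.53-fold lower in AWRI796 and 1.41-fold lower in VL3, and TPK3, another such gene, was 1.18-fold higher in AWRI796 and 1.17-fold higher in VL3. BCY1, the regulatory subunit gene, had a log2 change of -0.33 in AWRI796 and 0.03 in VL3. Of 11 genes of Ras and cAMP signalling, which control that kinase, 2 were at least 1.5-fold lower in AWRI796, with RAS1 at 2.65-fold, a share close to the 15.4% of all genes, and the median was -0.31. In VL3, 0 of the 11 differed by 1.5-fold and the median was 0.21. The glucose receptor gene GPR1 had a log2 change of -0.43 in AWRI796 and -0.20 in VL3, and its G protein gene GPA2 of -0.30 in AWRI796 and 0.54 in VL3. That of CDC25, the exchange factor for Ras, was -0.13 in AWRI796 and 0.32 in VL3. The medians of the PHO80, PHO85, PHO81 and 14-3-3 genes, 5 in all, were -0.44 in AWRI796 and 0.17 in VL3, with 0 past 1.5-fold in either strain. PHO85 had a log2 change of -0.45 in AWRI796 and -0.18 in VL3, PHO80 of -0.44 in AWRI796 and 0.04 in VL3 and PHO81, an inhibitor of that pair, of -0.44 in AWRI796 and 0.35 in VL3. The 14-3-3 gene BMH2 had 0.14 in AWRI796 and 0.42 in VL3.

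For PP2A, the target of the endosulfines, and for the SCH9 branch the medians were near 0. Of 7 genes for PP2A subunits and its regulators, RTS1, the alternative regulatory subunit, was 1.55-fold higher with SO2 in AWRI796 and 1.44-fold higher in VL3. TPD3, the scaffold, was 1.82-fold lower in AWRI796 and 1.19-fold lower in VL3. The log2 change of PPH22, a catalytic subunit gene, was 0.08 in AWRI796 and 0.01 in VL3, and that of ZDS2, a regulator of Cdc55, was -0.28 in AWRI796 and -0.20 in VL3. The medians of these 7 genes were -0.13 in AWRI796 and 0.005 in VL3. Of 7 genes of the SCH9 branch that passed the filter, of 8 listed, STB3, a repressor that binds ribosome biogenesis genes, was 1.56-fold higher in AWRI796 and 1.77-fold higher in VL3. It stood low, at 4.57 and 2.58 scaled RPKM in AWRI796 with and without SO2, and at 6.28 and 3.12 in VL3. STB3 passed the filter only through libraries with SO2. The branch had 1 gene at least 1.5-fold higher in each strain, which became 0 with a pseudocount of 5 or a minimum mean of 20 RPKM. PKH1, a kinase that phosphorylates Sch9, was 2.00-fold lower in AWRI796 and 1.18-fold lower in VL3. SFP1, an activator of ribosomal protein genes, had a log2 change of 0.18 in AWRI796 and 0.43 in VL3, and DOT6, a repressor of ribosome biogenesis genes, of 0.003 in AWRI796 and -0.18 in VL3. The medians of the branch were -0.12 in AWRI796 and 0.11 in VL3.

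Other stress and nutrient transcription factors went both ways. Of 20 listed, 17 passed the filter, and in AWRI796 3 of these were higher and 3 lower by 1.5-fold or more, shares close to the 17.6% and 15.4% of all genes, with a median of -0.18. In VL3, 2 were higher and 1 lower, at a median of -0.03 that became 0.13 without the scaling factors. HAP4, the activator of respiratory genes, was 1.38-fold higher in AWRI796 and 2.36-fold higher in VL3. WAR1, the activator of weak acid resistance, was 2.18-fold higher in AWRI796 and 1.13-fold higher in VL3. The repressor gene NRG1 was 2.1-fold lower in AWRI796 and 1.09-fold lower in VL3, and MSN1 was 1.13-fold lower in AWRI796 and 1.65-fold lower in VL3.

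**Figure D4:**
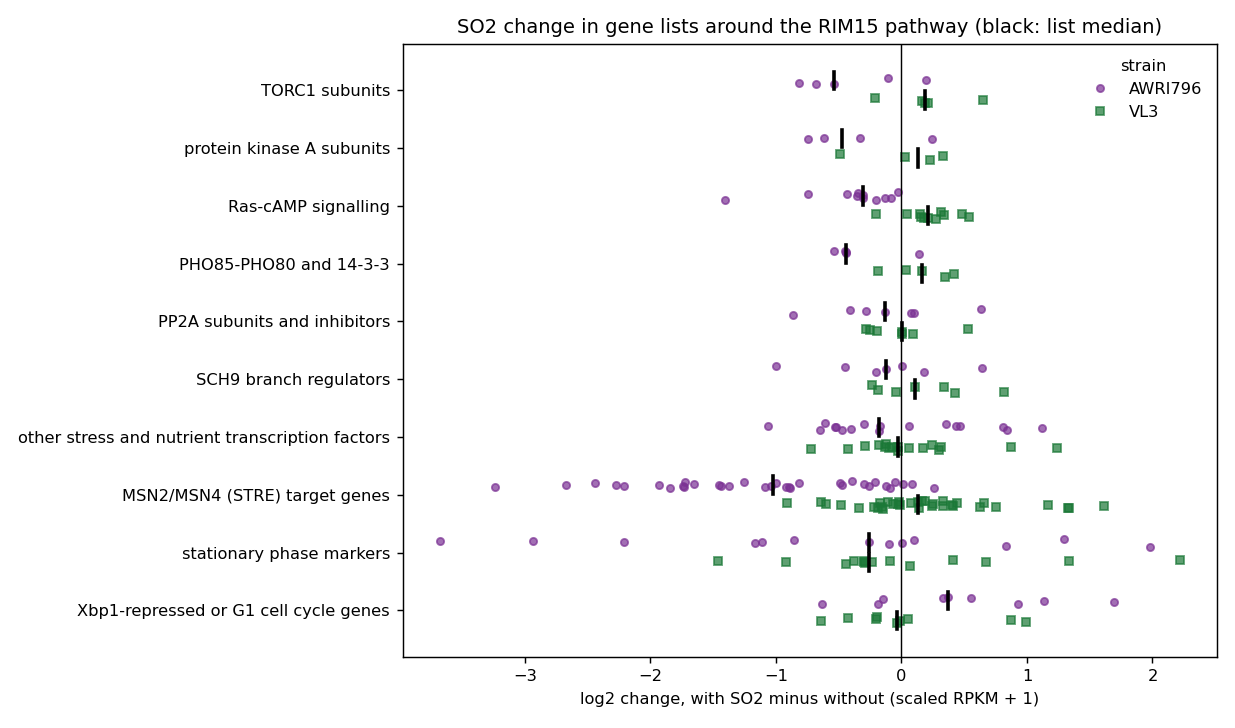
Log2 change with SO2 minus without SO2 of each gene that passed the filter in 10 lists, for AWRI796 (purple circles) and VL3 (green squares), with a black bar at the list median. The STRE target genes have their median at -1.02 in AWRI796 and 0.14 in VL3, and the kinase lists at the top lie below 0 in AWRI796 and above 0 in VL3 by their medians.

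The targets of Msn2 and Msn4 were mostly lower with SO2 in AWRI796. There MSN4 was 1.99-fold higher. MSN2 was 1.36-fold higher, short of 1.5-fold, and 1196 of 5158 genes rose more. Neither passed limma over both strains. Of 34 STRE target genes with values, 22 were lower by 1.5-fold or more with SO2 in AWRI796 and 0 were higher by that much, where 15.4% and 17.6% of all genes were, with a median log2 change of -1.02. In VL3, 7 of 34 passed 1.5-fold upward and 3 downward, where 10.7% and 9.86% of all genes did, with a median of 0.14. HSP26, a small heat shock protein, was at 996 scaled RPKM in AWRI796 with SO2 and 6373 in AWRI796 without SO2, 6.39-fold lower with SO2. In VL3 it was 1.19-fold higher with SO2. SOL4, of the pentose phosphate pathway, was 5.44-fold lower in AWRI796 and 1.01-fold lower in VL3. It stood at 2.48 and 17.9 scaled RPKM in AWRI796 with and without SO2, and at 3.11 and 3.17 in VL3. SOL4 passed the filter only through AWRI796 without SO2, the baseline of its fold in that strain. With a minimum mean of 20 RPKM, 21 targets were lower by 1.5-fold or more in AWRI796. CTT1, the cytosolic catalase, was 1.2-fold lower in AWRI796 and 2.52-fold higher in VL3, and CYC7, a cytochrome c isoform, was 1.23-fold lower in AWRI796 and 3.06-fold higher in VL3. By limma over both strains 0 of the 33 that were tested passed.

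Among the 32 STRE targets with a value in every library, 15 had their highest level in AWRI796 without SO2 and 16 their lowest in AWRI796 with SO2. R008 came next at the upper end, with 9 of the 32 highest. With SO2, 32 of the 32 were higher in R008 than the mean of the 3 enological strains, where 51.6% of all 5009 genes were, and the median difference was 0.65 log2 units. Without the scaling factors, 28 of the 32 were higher, against 24% of all genes. R008 was above every enological strain in 24 of the 32, where it was so in 20.1% of all genes. Without the scaling factors this held for 16 of the 32, against 8.13% of all genes. No STRE target passed limma's threshold in that comparison.

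**Figure D5:**
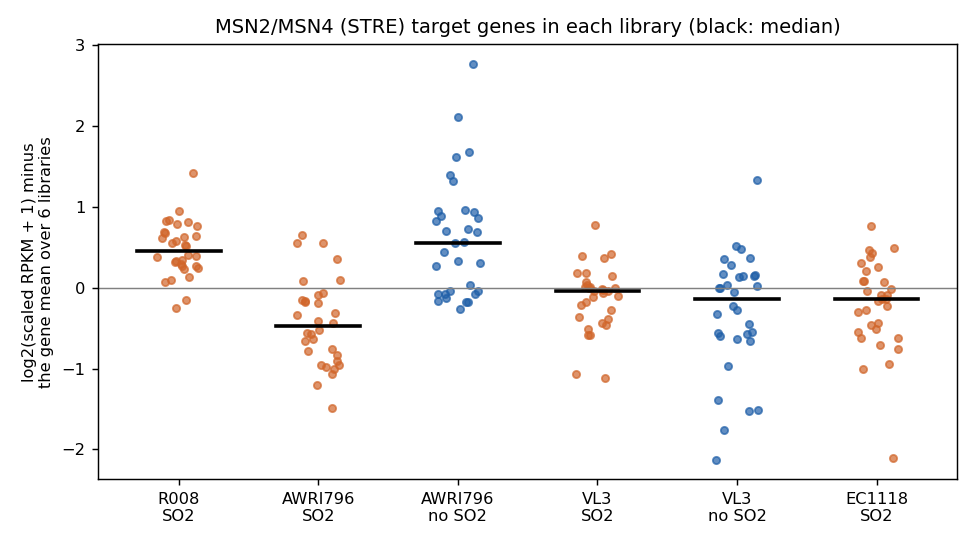
Level of each of 32 STRE target genes in each library as log2(scaled RPKM + 1) minus the mean of that gene over the 6 libraries, orange with SO2 and blue without, with a black bar at the median. The medians are 0.46 in R008. AWRI796 has -0.48 with SO2 and 0.55 without, and the remaining 3 libraries lie from -0.14 to -0.04.

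The median level over markers of the resting state was highest in both AWRI796 libraries, 1 of which is the baseline of every AWRI796 change above. That median is taken over unlike genes, and single markers went both ways between AWRI796 and VL3. The median log2 level of 13 such markers was 6.47 in AWRI796 with SO2 and 6.60 in AWRI796 without SO2, against 6.11 in VL3 with SO2 and 5.84 in VL3 without SO2. It was 5.71 in R008 and 5.39 in EC1118. SIP18, a desiccation protein, was at 513 in AWRI796 with SO2 and 6588 in AWRI796 without SO2, and PAI3, a protease inhibitor, at 125 and 962, while GRE1, another desiccation gene, was higher with SO2 in both strains, at 241 and 60.2 in AWRI796 and 139 and 29 in VL3. Of the 13 markers with values in AWRI796, 3 were higher and 6 lower by 1.5-fold or more with SO2, where 17.6% and 15.4% of all genes were, and the median change was -0.26. With a minimum mean of 20 RPKM that median was -0.85, with 1 marker higher and 5 lower. Of 14 in VL3, 3 were higher and 2 lower, with a median change of -0.26, opposite in sign to the difference of the median levels. SPG4, a gene required for survival in stationary phase, had a log2 change of 0.83 in AWRI796 and 0.67 in VL3. HSP12 and CTT1 belong to this list and to the STRE list. With SO2, GRE1 was higher in AWRI796 than in VL3, while PAI3 (125 against 199 scaled RPKM) and CTT1 (87.9 against 143) were lower. The part of growth stage in the SO2 changes was not tested.

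Genes that Xbp1 represses or that act in the cell cycle, 9 in all, had a median log2 change of 0.37 in AWRI796. Of the 9, 3 were at least 1.5-fold higher and 1 lower, where 17.6% and 15.4% of all genes were. In VL3 the median was -0.04, which became 0.12 without the scaling factors, with 2 higher and 1 lower. CLN2, a G1 cyclin, was at 11.9 scaled RPKM in AWRI796 with SO2 and 2.97 in AWRI796 without SO2, and at 5.8 in VL3 with SO2 and 9.6 in VL3 without SO2. SWI5, a cell cycle activator, was 1.29-fold higher in AWRI796 and 1.83-fold higher in VL3. CYS3, of cysteine synthesis, was 1.14-fold lower in AWRI796 and 1.04-fold higher in VL3, and SMF2, a manganese transporter, was 1.55-fold lower in AWRI796 and 1.34-fold lower in VL3.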

How the data were processed

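RNA was measured in 6 cultures of 4 strains, 1 library each. Per the labels' protocols, rRNA was removed from total RNA and SOLiD 4 whole transcriptome libraries were made. The deposited values are RPKM, computed by the authors per the file headers. For aligner, read length, counting tool, gene models and build, the sources used here give nothing. Start and end equalled those of R64 for 5860 of 5869 genes found in both. The part of strain sequence differences in read mapping was not tested.

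Of 6611 records, 2 shared a line with another record and were split off, and 8 that shared a name were left out. Low values did not resolve into whole reads, so depth is unknown and no counting interval is given. At the best of many trial scales, 27.5% to 30.0% lay within 0.1 of a whole read. The 20% expected by chance holds for a fixed scale and not for the best of many.

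RPKM were divided by median-of-ratios factors (0.88 to 1.152, from 4993 genes). Genes with a mean RPKM of at least 5 were kept (5335), with a pseudocount of 1. Within a strain, sizes are given without a test. limma 3.58.1 in R 4.3.3 (eBayes with trend, two-sided, Benjamini-Hochberg at 0.05) tested SO2 over AWRI796 and VL3 with strain as a block, with 1 residual degree of freedom, and R008 against the enological strains, with 2. The single R008 library was assumed to vary like the others. Nothing says that strains are replicates. The fits were tested on simulated data. Copies and shared runs were searched with BLAST+ 2.17.0.

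Members, the 10 gene lists and tests were chosen with earlier results of these data known. From each list up to 4 genes are named, the 2 highest and 2 lowest by mean change over both strains. Of these, 1 is not reported here. The nearest 3 reading frames on each side of RIM15 are named too. Of the likeness search, the 5 highest and 5 lowest r are named. Genes chosen after their values were seen are HSP12 and, for flagged changes, TOR2, DDR2, SPI1, YGP1 and FMP45.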

Additional observations from a re-analysis of the deposited data

Results flagged for a closer look

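None of the 7 genes of the RIM15 set that passed the filter differed by at least 1.5-fold with SO2 in opposite directions in AWRI796 and VL3. Of 120 genes checked, counting the lists around the set, 6 did so, and over all 5092 genes 3.14% did. Each value comes from 1 pair of libraries, and the difference between the strains was not tested.

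In 4 of the 6 the gene was lower with SO2 in AWRI796 and higher in VL3. DDR2, a stress gene with STRE elements, had a log2 change of -2.28 in AWRI796 and 1.33 in VL3. SPI1, a cell wall protein gene, had a log2 change of -1.04 in AWRI796 and 1.17 in VL3. YGP1, a secreted glycoprotein gene, had a log2 change of -0.89 in AWRI796 and 0.76 in VL3, and TOR2, a kinase gene of the TOR complexes, of -0.82 in AWRI796 and 0.65 in VL3. The other pair went the opposite way. FMP45, a membrane protein gene of the stationary phase list, had a log2 change of 1.29 in AWRI796 and -0.92 in VL3, and CLN2 of 1.70 in AWRI796 and -0.64 in VL3. FMP45 stood at 22.0 and 8.36 scaled RPKM in AWRI796 with and without SO2, and at 1.26 and 3.27 in VL3. It passed the filter only through AWRI796 with SO2, and at its low VL3 levels no direction is drawn.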

How the results depend on the processing

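Counts of members at 1.5-fold depend on thresholds more than directions do. In AWRI796, 2 members were higher, which became 1 with quantile normalization, with a pseudocount of 5 or with a minimum mean of 20 RPKM, and 0 at 2-fold. The 1 lower became 0 at 2-fold. In VL3 the 1 higher became 0 with a pseudocount of 5, with a minimum mean of 20 RPKM or at 2-fold. The 4 members with all SO2 libraries above both without SO2 became 2 without scaling factors and 1 with a minimum mean of 20 RPKM, which leaves out most members. The alternatives for that count were chosen after seeing the data.

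Genes called by limma in R008 numbered 9, of which 2 were higher and 7 lower, and with no filter on low values 26, of which 26 were higher and 0 lower. Leaving out 1 enological library gave between 8 and 13. Over AWRI796 and VL3 limma called 0 genes under every alternative run, with or without the strain block, and between 207 and 375 had an unadjusted p under 0.05. In that fit over AWRI796 and VL3, 0 members passed under the alternatives, with a lowest limma adjusted p of 0.751. Without scaling factors the median gene shifted by 0.15 log2 units in VL3, -0.07 in AWRI796 and -0.21 in R008 against the enological strains. The split of genes at 1.5-fold in VL3 was then 930 higher and 290 lower, against 553 and 508. In VL3 the list medians of TORC1 and of the SCH9 branch turned to -0.03 and -0.05 with a minimum mean of 20 RPKM. The SO2 fit with strain as a block is the paired fit of both strains, and no other pairing exists among the libraries.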
